A study of Mus musculus with 2 samples.

Results

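The genes examined encode elastin (Eln), the fibrillins (Fbn1 and Fbn2), the fibulins (Fbln1, Fbln2, Efemp1, Efemp2 and Fbln5) and the microfibril-associated proteins Mfap4 and Mfap5. They were taken by name from a list of 10 genes, and all 10 were found, each on a single row, among the 20211 gene symbols of the deposited tables. RNA was sequenced from primary perivascular cells (PVCs) of the mouse aorta, grown in culture, on a C57BL/6 background. There was 1 library from WT cells and 1 from Kai1 KO cells, labelled as lacking KAI1, the tetraspanin encoded by Cd82. The values are RPKM, that is, reads divided by transcript length and by the mapped reads of the library, so that levels can be compared between genes of different length. The study compared these libraries to ask how loss of KAI1 alters the transcriptome of perivascular cells. The study used adult mice of either sex within an age range of some weeks, but the sources used here do not give the number, sex or exact age of the mice behind these cultures, the passage number, or how the knockout allele was made.

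Elastic fibres give the aortic wall its recoil. They form outside the cell, where soluble tropoelastin, the product of Eln, is deposited on a scaffold of fibrillin microfibrils and cross-linked by lysyl oxidases. Fibulin-4 (Efemp2) and fibulin-5 (Fbln5) bring tropoelastin, the cross-linking enzymes and the microfibril together, and the small glycoproteins MAGP-1 (Mfap2) and MAGP-2 (Mfap5) bind to fibrillin. In the arterial wall most elastin is laid down by smooth muscle cells during development and early growth.

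Start-site sequences are shown for Fbln2, the most abundant gene of the list, and Fbln5, the gene of the list with a higher value in the Kai1 KO library. The RefSeq promoter table (build GRCm38.p6) matched 6 of the 10 genes with 10 start sites. Eln, Fbn2, Mfap4 and Mfap5 were not matched. The 250 bases before each start were placed by exact match on NCBI37, also called mm9, the build the authors used. Each had 1 match. The sequences are written 5′ to 3′ on the strand of the gene, and capitals mark matches to the GC box (GGGCGG) or the CCAAT box on either strand. The Fbln2 sequence lies at chr6:91162508-91162757 on the plus strand and the Fbln5 sequence at chr12:103057330-103057579 on the minus strand.
Fbln2: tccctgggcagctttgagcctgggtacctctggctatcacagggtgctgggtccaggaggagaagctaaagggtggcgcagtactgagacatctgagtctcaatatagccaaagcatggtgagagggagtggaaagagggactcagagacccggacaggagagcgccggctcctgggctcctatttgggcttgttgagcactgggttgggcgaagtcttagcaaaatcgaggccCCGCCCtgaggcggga
Fbln5: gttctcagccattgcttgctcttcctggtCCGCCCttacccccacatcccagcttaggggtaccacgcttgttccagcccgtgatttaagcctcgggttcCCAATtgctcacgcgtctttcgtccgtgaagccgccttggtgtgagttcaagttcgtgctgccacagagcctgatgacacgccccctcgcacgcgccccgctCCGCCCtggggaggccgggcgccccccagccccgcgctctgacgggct

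The Fbln2 window held 1 GC box, 16 bases before the start. The Fbln5 window held 2 GC boxes, 221 and 48 bases before the start, and 1 CCAAT box at 150 bases. Of the 10 start sites of these genes, some of whose windows overlap, 8 held a GC box and 1 held a CCAAT box within 250 bases, and none held the TATA box (TATAAA) or the AP-1 site (TGACTCA). Of all 32536 distinct windows in the table, 33.0% held a GC box, 33.8% a CCAAT box, 12.3% a TATA box and 4.45% an AP-1 site. The GC content was 58.8% for the Fbln2 window and 65.2% for the Fbln5 window shown, against a median of 52.4% over all windows. For the other Fbln5 start site, not shown, the GC content was 49.6%, and its window held none of these motifs. Expression at individual start sites was not measured, and these matches are a description of the sequence only.

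No read totals were given with the values. Steps of 1 read among the lowest values corresponded to about 29500000 reads for WT and 26700000 for Kai1 KO. Cd82 itself had 12.8 RPKM in WT cells and 2.62 in Kai1 KO cells. The RPKM values summed to 884463 and 1238190, so that scaling both libraries to the same sum would lower every Kai1 KO value relative to WT. All 4 Y-linked genes examined had between 0.479 and 6.56 RPKM in WT cells, and all 4 were listed at 0 for Kai1 KO. Because there was 1 library per genotype, the genotype cannot be told apart from the sex of the cells, the animal, the culture or the library preparation, and no test between genotypes was possible. The intervals given below come from estimated reads and cover counting error only, for all genes and both libraries.

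Of the 10 genes, 8 averaged 1 RPKM or more and were kept. Fbln2, which encodes fibulin-2, a glycoprotein of elastic tissue and basement membranes, was the most abundant in both, with 831 RPKM in WT cells and 428 in Kai1 KO cells. Efemp2 (fibulin-4) came next, at 256 and 217. In the WT library these were followed by Mfap5 at 194 and Efemp1 (fibulin-3) at 129. Fbn1, which encodes fibrillin-1, the main fibrillin of adult tissue, then had 41.1 and Fbln5 29.0. Elastin itself was a minor transcript of these cultures. Eln had 6.81 RPKM in WT cells, rank 5599 of all symbols, and Fbln1 (fibulin-1) followed at 2.93. Fbln2, by contrast, stood at rank 161 in the WT library.

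**Figure D1:**
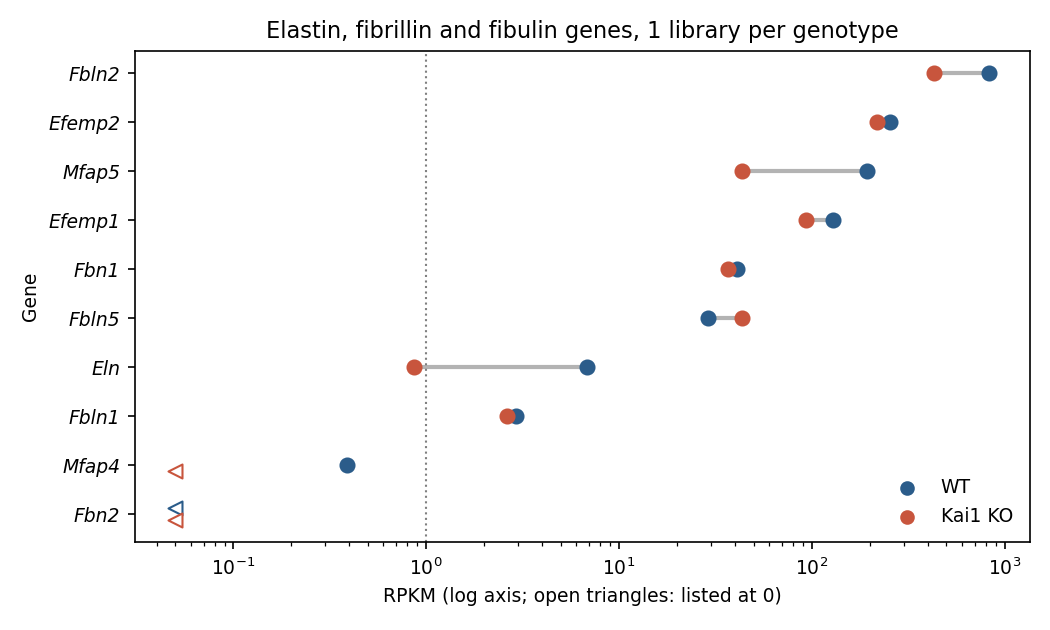
RPKM of each of the 10 genes in the WT library (blue) and the Kai1 KO library (red), on a log axis, with genes ordered by the WT value. Open triangles at the left edge are values listed at 0, and the dotted line marks an RPKM of 1. The longest bars are those of Eln, from 6.81 to 0.867, and Mfap5, from 194 to 43.6, and Fbln5 alone has its red point to the right.

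The order of the genes differed in 3 places in the Kai1 KO library. Efemp1, at 93.9, stood above Mfap5, at 43.6. Fbln5, at 43.4, stood above Fbn1, at 36.7. Fbln1, at 2.63, stood above Eln, at 0.867. Mfap5 and Fbln5 were neighbours that could not be separated in the Kai1 KO library, where the 95% counting interval was 41.4 to 45.8 for Mfap5 and 42.3 to 44.5 for Fbln5. The other neighbours in the order, among the 8 genes above, had counting intervals that did not overlap in either library.

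As a group, the 8 genes were lower in the Kai1 KO library, but by very different amounts. On the scale of log2((RPKM + 0.1)/(RPKM + 0.1)), Kai1 KO over WT, their median was -0.35, whereas the median of all 10068 genes kept by the same rule was 0.08. The ratio was below 0 for 7 of the 8, compared with 44.9% of all genes kept. The share over all genes depended on how the libraries were scaled. Scaled to Gapdh, which lowers every Kai1 KO value, it was 74.8%. The same 7 of the 8 listed genes were then below 0, which was fixed in advance for them. Only Fbln5 could have changed sign, and it stayed above 0. Eln and Mfap5, 2 of the 8, were more than 2-fold lower, compared with 7.81% of all genes kept. Eln was below 1 RPKM in the Kai1 KO library and was kept only through its WT value. None of the 8 was more than 2-fold higher, compared with 7.98% of all genes kept.

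**Figure D2:**
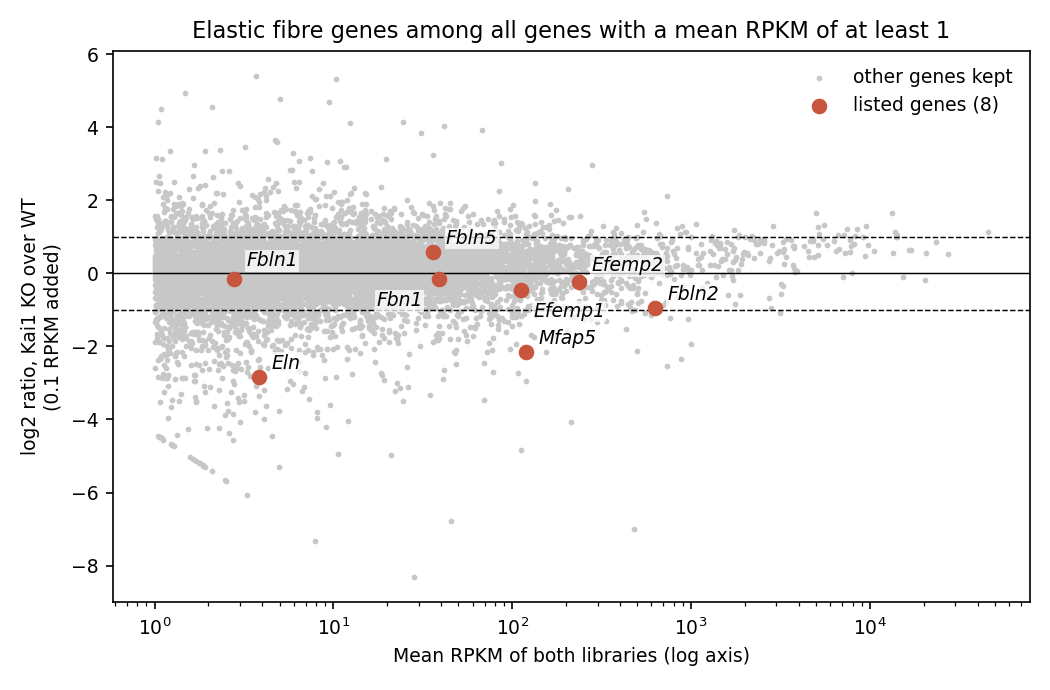
The log2 ratio of Kai1 KO over WT (0.1 RPKM added) against the mean RPKM of both libraries on a log axis, for all 10068 genes kept (grey) and the 8 listed genes among them (red). The dashed lines mark 2-fold. Eln at -2.84 and Mfap5 at -2.15 lie below the lower line, and the other 6 genes lie between the lines.

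Elastin showed the lowest ratio of the list. Eln (ENSMUSG00000029675.9) is on the minus strand of chromosome 5 (NCBI37, 135179651 to 135223111), and its annotated transcript has 37 exons. Its level was 6.81 RPKM in WT cells and 0.867 in Kai1 KO cells, or 12.7% of the WT level, a log2 ratio of -2.84. Only 1.05% of all genes kept had a lower ratio. The values correspond to about 478 and 55 reads, and without the pseudocount the log2 ratio had a 95% counting interval from -3.41 to -2.57. The annotated transcript of Eln, 2583 bases, holds coding sequence only, so that these reads are likely too few and the interval too wide. With 1 RPKM added instead of 0.1 the log2 ratio was -2.06.

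Mfap5 was the other gene past 2-fold. MAGP-2, its product, binds fibrillin and can also bind integrins. Mfap5 (ENSMUSG00000030116.8) is on the plus strand of chromosome 6 (122455863 to 122479308). Its level was 194 RPKM in WT cells and 43.6 in Kai1 KO cells, or 22.5% of the WT level, a log2 ratio of -2.15. A lower ratio was found for 1.91% of all genes kept. With about 7473 and 1520 reads, its counting interval was -2.23 to -2.07, so that the whole interval lay past 2-fold. Its rank among all symbols went from 509 in the WT library to 1797 in the Kai1 KO library.

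The fibrillin scaffold differed far less. Fbn1 (chromosome 2 from 125126330 to 125333729, minus strand, 65 exons) had 41.1 RPKM in WT cells and 36.7 in Kai1 KO cells, 89.3% of the WT level, a log2 ratio of -0.16 with a counting interval from -0.20 to -0.13. Relative to Fbn1 of the same library, a comparison that no scaling between libraries can alter, Eln was at 16.6% in WT cells and 2.36% in Kai1 KO cells. Mfap5 was at 472% of Fbn1 in WT cells and 119% in Kai1 KO cells. The elastin and MAGP-2 transcripts were thus lower relative to fibrillin-1 by 7.01-fold and 3.97-fold. Fbn2, which encodes fibrillin-2, mostly known from developing tissue, lies on chromosome 18 and was listed at 0 in both libraries.

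The fibulins did not share 1 direction. Fbln2 (chromosome 6 from 91162449 to 91222534, plus strand) had 831 RPKM in WT cells and 428 in Kai1 KO cells, 51.5% of the WT level, a log2 ratio of -0.96, just short of 2-fold. Its counting interval was -0.97 to -0.94, and 8.32% of all genes kept had a lower ratio. Efemp1, whose product fibulin-3 is found near basement membranes, was at 129 and 93.9, a log2 ratio of -0.46. Efemp2, whose product is required for elastic fibre assembly, was at 256 and 217, a log2 ratio of -0.24. Fbln1, whose product associates with elastic fibres and basement membranes, was at 2.93 and 2.63, a log2 ratio of -0.15. The interval of Fbln1, from -0.41 to 0.09, included 0, so that without scaling no difference was detectable at this depth. Scaled to Gapdh the log2 ratio of Fbln1 was -0.63, and with the summed RPKM made equal it was -0.61. The interval applies to the unscaled ratio only, and none was computed for the scaled ratios.

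Fbln5 was the gene with a higher value in the Kai1 KO library. Its product, fibulin-5, binds tropoelastin, lysyl oxidase-like proteins and cell-surface integrins. Fbln5 (ENSMUSG00000021186.8, chromosome 12 from 102984775 to 103057265, minus strand) had 29.0 RPKM in WT cells and 43.4 in Kai1 KO cells, 149% of the WT level, a log2 ratio of 0.58 with a counting interval from 0.53 to 0.63. Among all genes kept 21% had a higher ratio, so that the size of this difference was common in these libraries. Fbln5 was at 3.49% of Fbln2 in WT cells and 10.1% in Kai1 KO cells. It was at 11.3% of Efemp2 in WT cells and 20.0% in Kai1 KO cells. The contrast was sharpest with elastin, which was at 23.4% of Fbln5 in WT cells, a ratio that was 11.7-fold lower in Kai1 KO cells.

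Summed over the 5 fibulins, the RPKM was 1248 in WT cells and 786 in Kai1 KO cells. Fbln2 made up 66.6% of this sum in WT cells and 54.5% in Kai1 KO cells. The share of Efemp2 was 20.5% and 27.7%, that of Efemp1 10.3% and 11.9%, and that of Fbln5 2.33% and 5.52%. Fbln1 held 0.235% and 0.335%. The fibulin transcripts of the Kai1 KO library thus consisted less of Fbln2 and more of the other 4 genes.

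Mfap4, whose product binds both elastin and fibrillin, was near the limit of detection. It had 0.386 RPKM in WT cells, about 17 reads, and was listed at 0 in the Kai1 KO library. Of the 521 other genes with a WT value between 0.309 and 0.483, 73 were also listed at 0 in the Kai1 KO library, or 14.0%. An exon of Mfap4 overlaps an exon of Mapk7 on the opposite strand, and the sources used here do not say whether reads were counted by strand. No fold change is given for Mfap4 or Fbn2, since a ratio to a value of 0 is set by the pseudocount.

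How the libraries were scaled mattered for the size of these differences. All 4 scalings tried lowered the Kai1 KO values relative to WT. The 7 genes below 0 could therefore not change sign, and only Fbln5 could have done so. Gapdh was higher in the Kai1 KO library, at 5997 against 4238, and scaling to it moved the median log2 ratio of all genes kept from 0.08 to -0.41. The summed RPKM made equal moved it to -0.39. Under the 4 scalings tried, Fbln2 passed 2-fold, with ratios from -1.46 to -1.04, so that 3 of the 8 genes were more than 2-fold lower. The share of all genes kept that was more than 2-fold lower was then 9.06% with the median set to 0, 9.70% with the upper quartile made equal, 18.4% scaled to Gapdh and 18.0% with the sums made equal. Among all genes past 2-fold, 49.5% were lower without scaling and 87.0% when scaled to Gapdh. Fbln5 stayed above 0, but its ratio was only 0.08 when scaled to Gapdh.

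**Figure D3:**
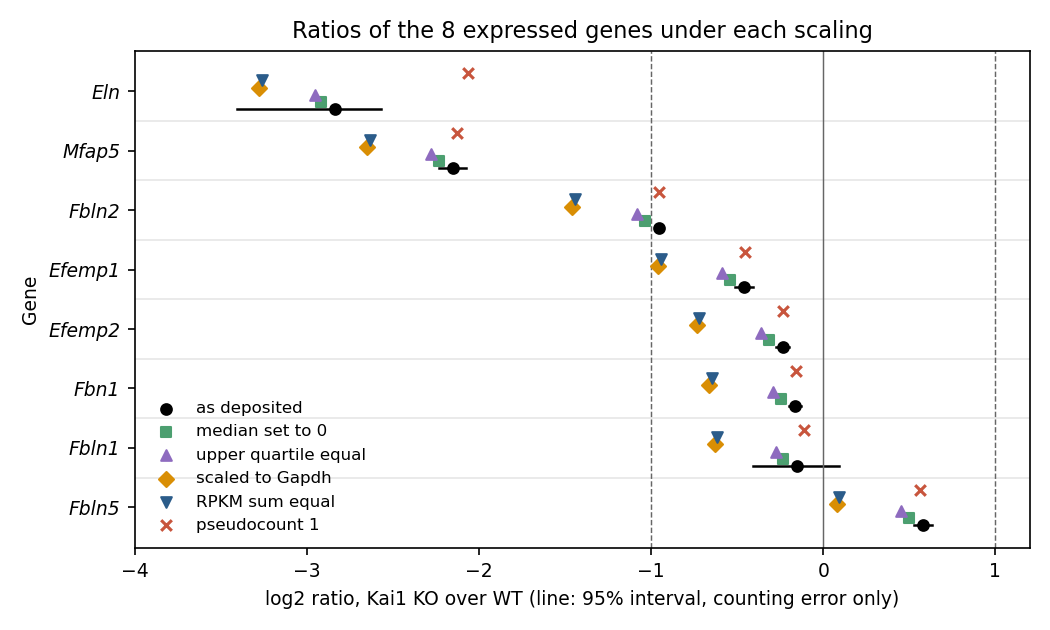
The log2 ratio of Kai1 KO over WT for the 8 genes kept, from the deposited values (black), under 4 scalings of the libraries and with a pseudocount of 1 RPKM. Black lines are 95% intervals for counting error only, computed from the deposited values without a pseudocount, and dashed lines mark 2-fold. Eln and Mfap5 lie below -1 in every setting drawn, between -3.28 and -2.06, and Fbln5 lies between 0.08 and 0.58.

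Genes listed from general knowledge as partners of elastin and the microfibril were then examined in 9 lists of 68 names. The lists were compiled with earlier results of these data known, so that their counts are a description only. Of these names, 65 were measured and 42 averaged 1 RPKM or more. Of these 42 genes, 14 were more than 2-fold lower, or 33.3%, beside 7.81% of all genes kept, and 1 was more than 2-fold higher, beside 7.98%. The median log2 ratio of the 42 was -0.75. Of the 14, Mfap2 and Tnxb were below 1 RPKM in the Kai1 KO library and were kept only through their WT values. Scaled to Gapdh, 24 of the 42 lay below -1, beside 18.4% of all genes kept, and 1 lay above 1, beside 2.76%.

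The lowest ratio of these lists was that of Mfap2. It encodes MAGP-1, the relative of MAGP-2, and had 5.34 RPKM in WT cells and 0.132 in Kai1 KO cells. By RPKM, Mfap2 was at 2.47% of the WT level, and with 0.1 RPKM added its log2 ratio was -4.55. The values correspond to about 139 and 3 reads. From these rounded reads, without the pseudocount, Mfap2 was 41.9-fold lower with a counting interval from 14.1-fold to 206-fold. Both MAGP genes were thus lower, as was Eln. Tnxb, a tenascin of elastic tissue, was at 1.67 and 0.655, a log2 ratio of -1.23. The emilins, glycoproteins at the border between elastin and microfibrils, did not share this pattern. Emilin1 was at 40.2 and 39.1, and Emilin2 at 22.8 and 29.0. Mfap1b was at 15.2 and 15.1 and Mfap1a at 8.56 and 6.41, and since these are near-identical copies their separate values are uncertain. Both are in the list by name, and a part in the microfibril was not tested. In this list of 11 genes, 7 were kept. Of these, 2 were more than 2-fold lower, beside 7.81% of all genes kept, and none higher, beside 7.98%.

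The lysyl oxidases, which cross-link elastin and collagen, were all lower. Among all genes kept, 44.9% had ratios below 0, or 74.8% when scaled to Gapdh. Of the 5 genes 3 were more than 2-fold lower, beside 7.81% of all genes kept. These were Loxl2, from 70.2 in the WT library to 20.0 in the Kai1 KO library, Loxl1, from 101 to 47.3, and Loxl3, from 52.9 to 25.8. Lox, the most abundant of them, was at 402 and 235, a log2 ratio of -0.77, and Loxl4 at 19.7 and 15.1. Relative to Lox of the same library, Eln was at 1.69% in WT cells and 0.369% in Kai1 KO cells. The ratio of elastin to its cross-linking enzyme was thus lower as well.

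The latent TGF-beta binding proteins resemble fibrillins in structure, and they held both directions. Ltbp4, which is needed for elastic fibre assembly and binds fibulin-4 and fibulin-5, was at 3.48 in WT cells and 16.6 in Kai1 KO cells, a log2 ratio of 2.22, the only partner gene more than 2-fold higher. Ltbp2 was at 58.9 and 26.2, a log2 ratio of -1.16. Ltbp1, at 24.1 and 25.0, and Ltbp3, at 36.1 and 40.5, had ratios of 0.05 and 0.17. The ratios of Ltbp1 and Adamts10 were below 0 under all 4 scalings tried, and that of Cst3 under all but the median set to 0. Scaled to Gapdh or to equal sums, the ratios of Ltbp3, Emilin2 and Mfap3 were below 0 as well. Ltbp4 remained more than 2-fold higher under every scaling.

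ADAMTS-like proteins bind fibrillin-1 and are secreted glycoproteins without protease activity. Of the 4 genes kept from their list, 3 were more than 2-fold lower, beside 7.81% of all genes kept. Adamtsl5 was at 87.4 in WT cells and 37.4 in Kai1 KO cells, Adamtsl4 at 36.8 and 14.7, and Adamtsl3 at 3.33 and 1.26. Adamts10, a protease of microfibrils, was at 8.40 and 8.65. Among 7 integrin genes, 5 were kept and all 5 had ratios below 0, beside 44.9% of all genes kept, or 74.8% when scaled to Gapdh. Itgav, a subunit that binds RGD motifs, was at 24.4 and 8.40, a log2 ratio of -1.53. Itgb1 was at 273 and 207, Itgb5 at 133 and 67.2, Itga5 at 78.1 and 40.0 and Itgb3 at 1.92 and 1.07.

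Among genes for the breakdown of elastin, the elastases Mmp9, Mmp12 and Ctss were listed at 0 in both libraries. Elane, the neutrophil elastase, was listed at 0 in WT cells and had 0.417 RPKM in Kai1 KO cells, about 8 reads, and was not kept. Of this list of 11, 6 genes were kept, and all 6 had ratios below 0. Over all genes kept that share was 44.9%, or 74.8% when scaled to Gapdh. Of the 6, 3 were more than 2-fold lower, beside 7.81% of all genes kept. Ctsk, a cathepsin with elastase activity, was at 35.1 in WT cells and 10.8 in Kai1 KO cells, Ctsl at 160 and 73.7 and Ctsb at 144 and 70.5. Mmp14 was at 138 and 83.4, Mmp2 at 68.0 and 39.6, and the serine protease gene Htra1 at 64.0 and 37.0. Among protease inhibitors Timp2 was at 1060 and 458, a log2 ratio of -1.21, whereas Timp1 was at 3518 and 2882, Timp3 at 498 and 393 and Cst3 at 1761 and 1885.

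Tropoelastin handling inside the cell showed smaller differences. All 7 genes kept had ratios below 0, beside 44.9% of all genes kept, or 74.8% when scaled to Gapdh. None of the 7 was past 2-fold, which was also so for most genes, since 7.81% of all genes kept were lower and 7.98% higher. Fkbp10, a chaperone of the secretory pathway, was at 166 in WT cells and 145 in Kai1 KO cells. Ctsa, the protective protein that escorts tropoelastin with the elastin-binding protein, was at 99.7 and 52.2, a log2 ratio of -0.93. Aldh18a1, a gene of proline synthesis, had a log2 ratio of -0.02, and Neu1 was at 11.4 and 7.11. The remaining relatives of the fibulins, Fbln7 at 0.548 and 0.345 and Hmcn1, listed at 0 in both libraries, were not kept.

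**Figure D4:**
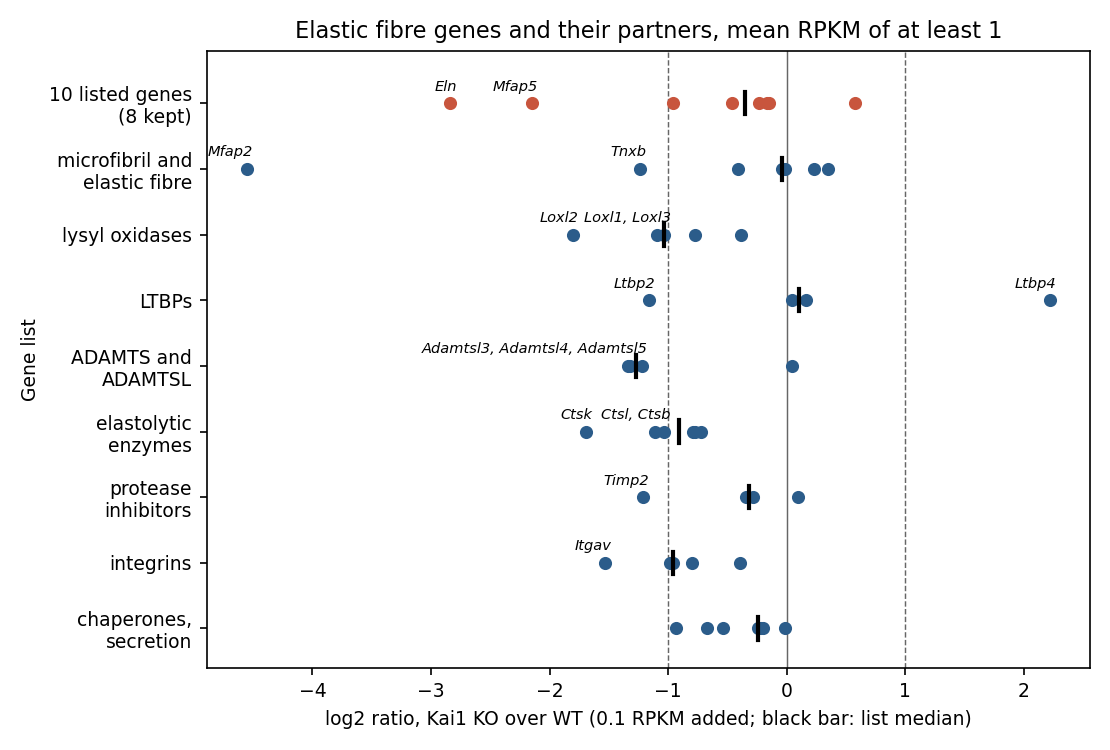
The log2 ratio of Kai1 KO over WT (0.1 RPKM added) for the 8 listed genes kept (red) and for the 42 partner genes kept (blue), 1 point per gene, by list. Short black bars are list medians and dashed lines mark 2-fold, and genes past 2-fold are named. Of the partner genes 14 lie left of -1, with Mfap2 farthest at -4.55, and Ltbp4 alone lies right of 1, at 2.22.

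Cell type markers were examined beside these values. All 10 endothelial markers were below 1 RPKM in WT cells and listed at 0 in the Kai1 KO library, with summed levels of 1.30 and 0. Among all 20211 symbols, 6902 were listed at 0 in the Kai1 KO library and 5690 in the WT library. Of the 10 markers, 3 were at 0 in WT cells too. The highest in WT cells were Pecam1, at 0.413 or about 40 reads, and Tek, at 0.409 or about 54 reads. The 4 epithelial markers summed to 0.642 and 0.391. The 11 smooth muscle and mural markers were all above 0 in both libraries and summed to 4681 in WT cells and 3020 in Kai1 KO cells, mostly Acta2 at 3823 and 2580. Of the 8 kept, 4 were more than 2-fold lower, beside 7.81% of all genes kept. Ratios were below 0 for 7 of the 8, beside 44.9% of all genes kept, or 74.8% when scaled to Gapdh. Myh11, a myosin of contractile smooth muscle, was at 2.96 and 0.346, and Mcam at 4.90 and 0.264, while Pdgfrb was at 44.7 and 31.6. Myh11 and Mcam, both among the 4 lower genes, were below 1 RPKM in the Kai1 KO library. They were kept only through their WT values. Smtn, a smooth muscle cytoskeletal gene, was at 35.6 and 42.5. Rgs5, a pericyte marker, was at 0.0630 and 0.233, near the limit of detection. The 11 fibroblast and adventitial markers summed to 3512 and 1979. Of the 10 kept, 5 were more than 2-fold lower, beside 7.81% of all genes kept. These included Ly6a, at 1354 and 569, and Col1a2, at 824 and 377. The others were Pdgfra, at 2.01 and 0.854, Dpt, at 3.06 and 0.783, and Pi16, at 1.98 and 0.384. Pdgfra, Dpt and Pi16 were below 1 RPKM in the Kai1 KO library and were kept only through their WT values. Cd34 alone was more than 2-fold higher, at 1.44 and 7.76, beside 7.98% of all genes kept. Of the 10, 7 had ratios below 0. Over all genes kept this share was 44.9%, or 74.8% when scaled to Gapdh. Also above 0 were Col3a1, at 67.5 and 101, and Thy1, at 324 and 380. The 8 macrophage markers summed to 18.4 and 14.5, with Emr1 listed at 0 in both libraries. The 3 kept were all past 2-fold, beside 7.81% of all genes kept lower and 7.98% higher. Csf1r was at 11.7 and 2.66, Lyz2 at 3.44 and 1.09, and Cd14 at 1.98 and 10.3. Most but not all smooth muscle and fibroblast markers were thus lower, as were Eln and Mfap5, and the part of these marker differences was not tested. In bulk RNA, fewer cells of a type and less RNA per cell cannot be told apart.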

How the data were processed

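RNA-seq libraries of WT and Kai1 KO PVCs (1 each) were analysed. According to the study's methods, the authors aligned reads to mm9 with TopHat and Bowtie, measured RefSeq genes and tested differences with Cuffdiff. The submitters' processing notes name TopHat2 2.0.9, Bowtie and Cufflinks. The authors deposited RPKM values, 1 per row and library. The library kit's strandedness is not given in the sources used here. The labels give 10% serum for the cultures and the methods a higher share.

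Of 20462 rows, 38 had no symbol and were dropped; rows of the 153 symbols listed more than once were averaged. The pseudocount was 0.1 RPKM, and genes averaging 1 RPKM or more were kept. With 1 library per genotype no test was run. Reads were estimated from the steps of low values in genes with a single annotated transcript over 800 bases, using GENCODE M1 lengths less 200 bases. Of the low values, 80.5% (WT) and 78.5% (Kai1 KO) were whole to within 0.15 reads. For the reads of a gene its longest protein-coding transcript was taken, so they are approximate. Intervals for ratios are exact binomial and those for levels exact Poisson, at 95%. The step search and the fold counts were tested on simulated data. The genes and lists were chosen with earlier results of these data known. Of each partner list, every gene past 2-fold and up to 4 others by mean RPKM are named. Glb1 and Hmcn2 had no matching row, and Adamtsl6 is another name of Thsd4. Alternatives were 2 pseudocounts, 4 scalings, other filters and the highest row of a repeated symbol. Python 3.11.15, numpy 2.4.6, pandas 2.3.3, scipy 1.17.1 and matplotlib 3.10.9 were used.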

Additional observations from a re-analysis of the deposited data

How the results depend on the processing

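None of the 8 ratios changed sign under the 4 scalings, of which the equal sum of RPKM was chosen after seeing the data. All 4 scalings lowered the Kai1 KO values, so that only Fbln5, above 0 without scaling, could have changed sign. Another pseudocount cannot change a sign, and the highest row of a repeated symbol left these ratios as they were, since each gene is on 1 row. With the median set to 0, the log2 ratios were -1.04 for Fbln2, 0.50 for Fbln5, -2.23 for Mfap5, -0.54 for Efemp1, -0.32 for Efemp2 and -0.24 for Fbn1, with a median of -0.43. With the upper quartile made equal, they were -1.08, 0.45, -2.28, -0.59, -0.36 and -0.29 in the same order, with a median of -0.48. Scaled to Gapdh, they were -1.46, 0.0781, -2.65, -0.96, -0.74 and -0.66, with Eln at -3.28, Fbln1 at -0.63 and a median of -0.85. With the sum of RPKM made equal, they were -1.44, 0.0935, -2.64, -0.94, -0.72 and -0.65, with Eln at -3.26, Fbln1 at -0.61 and a median of -0.83. These scalings multiply all Kai1 KO values alike or nearly so. A pseudocount of 1 RPKM left Eln at -2.06. When genes averaging under 5 RPKM were left out, Eln was lost and 1 of 6 genes, Mfap5, was more than 2-fold lower, and without a filter the count was 3 of 10, including Mfap4, whose ratio to a value of 0 is set by the pseudocount. The number of genes past 2-fold over all genes was 786 lower and 803 higher, but 1856 and 278 scaled to Gapdh, 1816 and 286 with equal sums, 977 and 594 at equal upper quartiles, 1878 and 1205 without a filter, 350 and 511 above 5 RPKM, and 572 and 550 with 1 RPKM added.

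No paired analysis was possible because there was 1 library of WT and 1 of Kai1 KO cells. Depth limited Mfap4, with about 17 reads in the WT library, Mfap2, with about 3 in the Kai1 KO library, and Eln, with about 55.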
